A study of Rattus norvegicus with 4 samples.

Results

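A set of 10 genes of enteric neuropeptides and transmitters was followed in rat colon: Vip, Tac1, Nos1, Gal, Npy, Penk, Calca, Calcb, Th and Ret. The genes were chosen by symbol, with earlier results of these data known. They were found through the RefSeq accession of each array row, with a value required on all 4 arrays. Of these, 7 were measured: Gal, Npy, Penk, Tac1, Calcb, Nos1 and Ret, each by 1 row of the 18350 measured rows. The rows of Calca and Th were blank on all 4 arrays, and no row was matched to Vip by name, so these 3 genes were not analysed here. Colon tissue of 4 male rats was used, 2 controls and 2 given a mesenchymal stem cell transplantation (MSCT), each on its own one-color array. The paper used Sprague Dawley rats in all groups. The MSCT rats were given TNBS (2,4,6-trinitrobenzene sulfonic acid) in the colon. This chemical induces an experimental colitis used as a model of inflammatory bowel disease (IBD). Mesenchymal stem cells labeled with green fluorescent protein were then given to them through the tail vein. The sample descriptions call the control animals normal rats, whereas in the paper the comparison group is IBD rats that had no cells, so whether the control rats had received TNBS is not settled here. The age is not given, and the day of sampling differs between sections of the paper. The paper describes its samples as covering the lesion region, without saying what this means for rats not given TNBS. The pieces hold whole colon tissue rather than isolated neurons.

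The colon wall holds its own nervous system, in which nerve cell bodies of the myenteric and submucosal plexus release peptides and small transmitters onto muscle, glands and vessels. Tachykinins and acetylcholine excite the muscle, nitric oxide and VIP relax it, and galanin, neuropeptide Y and the enkephalins mostly dampen transmitter release or secretion. The mRNA of these transmitters is made in the cell body, so colon RNA holds that of neurons of the wall, whereas the cell bodies of most sympathetic and spinal sensory fibers lie outside the gut. Ret is the receptor tyrosine kinase through which growth factors of the GDNF family build and keep the enteric nervous system.

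Of the 10 genes, 8 had a promoter in the RefSeq sequence table of the rat assembly GRCr8. The promoters of Gal and Ret are shown because both genes had a lower intensity in the MSCT group, with arrays that did not overlap, and they differ in the motifs searched. The capitals mark short motifs searched on both strands. TGACG is the core of the cAMP response element, through which many neuropeptide genes answer to nerve activity. TATAAA is a TATA box. Neither motif overlapped the other in these windows. The sequences hold the 250 bases before the start of each gene, 5′ to 3′ on the strand of the gene, at chr1:210084573-210084822 (minus strand) for Gal and at chr4:153040557-153040806 (minus strand) for Ret.
Gal: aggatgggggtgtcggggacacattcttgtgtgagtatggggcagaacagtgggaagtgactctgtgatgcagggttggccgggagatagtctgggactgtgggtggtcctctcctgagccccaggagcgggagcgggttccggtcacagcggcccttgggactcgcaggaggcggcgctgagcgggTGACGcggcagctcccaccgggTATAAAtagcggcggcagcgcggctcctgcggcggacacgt
Ret: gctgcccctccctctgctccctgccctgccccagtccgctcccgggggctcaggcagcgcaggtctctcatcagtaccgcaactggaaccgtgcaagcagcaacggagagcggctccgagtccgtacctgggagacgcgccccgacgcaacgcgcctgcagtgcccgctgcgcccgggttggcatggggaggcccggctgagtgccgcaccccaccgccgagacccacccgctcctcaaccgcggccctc
In the Gal promoter, TGACG began 63 bases before the start. The TATA box began 41 bases before it. The Ret window held neither motif. TGACG was found in 6 of the 8 promoters, and in 18.2% of all 33469 promoters of the table at the same length. TATAAA was found in 2 of the 8, and in 12.9% of all. These are matches of letters only.

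The median intensity of the 4 arrays lay between 848 and 893. Across rows, which are not independent replicates, log2 intensity of the control pair had a Pearson's r of 0.953 and that of the MSCT pair 0.964, while control replicate 2 with MSCT replicate 2 gave 0.959. Markers of colon tissue gave high signal, with all 5 measured smooth muscle markers and 9 of 10 epithelial markers in the brightest 25% of rows. Intensities are in arbitrary units and were compared between groups row by row on the log2 scale with limma, which fits each row and borrows information on the variance from all other rows. The study screened for a p under 0.05 and a fold change over 2, names no adjustment, and reports 388 genes past these limits. Of all measured rows, 850 passed this screen by limma (4.63%), 461 lower in the MSCT group (2.51%) and 389 higher (2.12%), and 0 had an adjusted p by limma under 0.05 by the Benjamini-Hochberg method, with 2196 rows at an unadjusted p under 0.05. Precision is limited by having 2 arrays a group, and the smallest two-sided p that an exact permutation test allows in this design is 0.333.

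Of the 7 measured genes, 6 had a lower mean in the MSCT group (52.0% of all rows did) and 1, Npy, a higher mean. By limma, Gal and Calcb passed the screen, both lower, whereas by the plain test with equal variances described below only Gal did. The limma result was 2 of 7 genes, against 2.51% of all rows and 1.78% of named genes lower by the same screen. Gal, Calcb and Ret, 3 of the 7, were lower at an unadjusted p by limma under 0.05. This was the case for 7.17% of all rows and 5.44% of named genes. In Gal, Calcb, Ret and Penk both MSCT arrays lay below both control arrays, which was the case for 24.5% of all rows. The median log2 difference of the 7 genes was -0.69, against -0.02 over all rows and 0.05 over the 6968 named genes. As the genes and lists were chosen with earlier results known, the shares set beside them are description and not a test. In bulk colon, fewer cells of a type and less RNA per cell cannot be told apart.

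**Figure D1:**
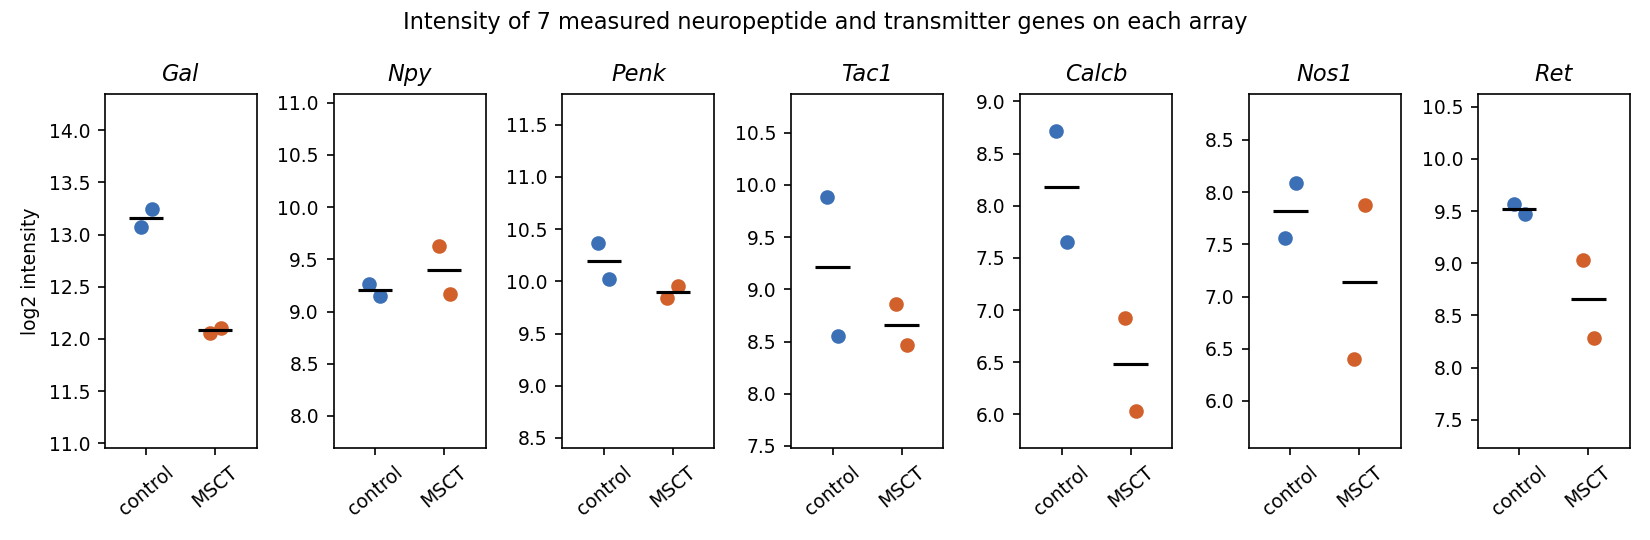
log2 intensity (vertical axis, a span of the same length in each panel) of the 7 measured genes on the 2 control arrays (blue) and the 2 MSCT arrays (orange), 1 point per rat, with a line at the group mean. Gal, Penk, Calcb and Ret show both MSCT arrays below both control arrays, and Gal shows replicates that lie close together.

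Gal encodes galanin, a peptide of enteric neurons that modulates motility and secretion. Intensities were 8627 and 9684 in the 2 control rats, against 4275 and 4395 in the MSCT rats. Both MSCT arrays were about as bright as each other and well below both control arrays. The log2 mean was 13.16 ± 0.12 (SD, n = 2) in control rats and 12.08 ± 0.03 (SD, n = 2) in the MSCT group, a difference of -1.08 (standard error 0.19), or 2.11-fold lower (95% interval of limma 1.49 to 2.99). The adjusted p by limma was 0.260 over all rows. Gal lay in the brightest 25% of rows, where the median SD within groups was 0.14 and 69 of 4588 rows passed the screen. With the trend and robust options of eBayes together, the adjusted p of Gal by limma was 0.00595. With the trend option alone, which lets the variance depend on intensity, it was 0.00450, with the robust option alone it was 0.281, and without the dimmest 50% of rows it was 0.0259. Over the alternatives the adjusted p ranged from 0.00450 to 0.657. Without control replicate 2 the difference was -0.99, just under the limit of 2-fold.

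Calcb encodes the β form of calcitonin gene-related peptide (CGRP), a vasodilator peptide which in the rat gut is the form made by enteric neurons, while Calca gives the α form of the sensory fibers. The control rats gave intensities of 419 and 202, and the MSCT rats gave 121 and 65.7. The groups did not overlap, but the replicates of each group lay about 2-fold apart. The log2 difference was -1.71 (standard error 0.50), or 3.26-fold lower (95% interval 1.30 to 8.15), with an adjusted p by limma of 0.343. Calcb lay in the dimmest 25% of rows, where the median SD within groups was 0.47, and MSCT replicate 2 came close to the lowest value of its array, 31.8. The table holds no detection calls, so how far the MSCT values lie above background is not known. Without control replicate 1 the difference was -1.18 and without MSCT replicate 2 it was -1.26, and in both cases Calcb no longer passed the screen. The methods' t-test, the plain test with equal variances to which one-way analysis of variance comes down for a pair of groups, passed Gal but not Calcb. By it, 1 of the 7 genes and 388 of all rows passed the screen, and 0 rows passed after Benjamini-Hochberg adjustment. Calca, the close relative of Calcb, had no measured row, and whether the Calcb probes share signal with it cannot be read from the table.

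Ret had intensities of 760 and 713 in the control rats, against 525 and 312 in the MSCT rats. The control arrays were nearly equal, and the MSCT arrays were lower and farther apart. The log2 difference was -0.86 (standard error 0.31), or 1.82-fold lower (95% interval 1.02 to 3.24), below the fold limit of the screen, with an adjusted p by limma of 0.408. Its size rested on MSCT replicate 2: without that array the difference was -0.49, and without MSCT replicate 1 it was -1.24, which passed the screen. The unadjusted p of Ret by limma was 0.0445 with all arrays. It was over 0.05 after quantile normalization (0.0647), with equal array medians (0.0577), with array weights (0.0572), after scaling to the pan-neuronal markers (0.230), without control replicate 1 (0.140), without control replicate 2 (0.112) and without MSCT replicate 2 (0.189). By the methods' t-test it was 0.150.

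Penk encodes proenkephalin, the precursor of the enkephalins, opioid peptides that slow transit. In the control rats the intensity was 1318 and 1043, and in the MSCT rats 914 and 991. The groups did not overlap, but the gap between the nearest arrays was smaller than the gap between the control arrays. The log2 difference was -0.30 (standard error 0.22; 95% interval -0.88 to 0.28), and the adjusted p by limma was 0.614.

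Tac1 encodes the precursor of substance P and neurokinin A, excitatory transmitters to colon muscle. The control rats had 945 and 375 units of intensity, the MSCT rats 463 and 354. Control replicate 1 stood above the other 3 arrays, and the groups overlapped. The log2 difference was -0.56 (standard error 0.50; 95% interval -1.89 to 0.77; adjusted p by limma 0.686). It turned to 0.11 without control replicate 1, and was -1.22 without control replicate 2, which passed the screen.

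Nos1 encodes the neuronal nitric oxide synthase, which makes the main relaxing transmitter of the gut wall. In the control rats its row read 189 and 272, and in the MSCT rats 84.6 and 235. MSCT replicate 1 was low, and MSCT replicate 2 lay between the control arrays. The log2 difference was -0.69 (standard error 0.55; 95% interval -2.16 to 0.79; adjusted p by limma 0.650). Without MSCT replicate 1 it was 0.051, and without MSCT replicate 2 it was -1.42, which passed the screen.

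Npy encodes neuropeptide Y, which restrains secretion and narrows vessels. Intensities were 614 and 569 in the control rats and 790 and 574 in the MSCT rats. MSCT replicate 1 was the highest of the 4 and MSCT replicate 2 lay between the control arrays. The log2 difference was 0.19 (standard error 0.24; 95% interval -0.45 to 0.83; adjusted p by limma 0.773), and it was -0.041 without MSCT replicate 1.

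**Figure D2:**
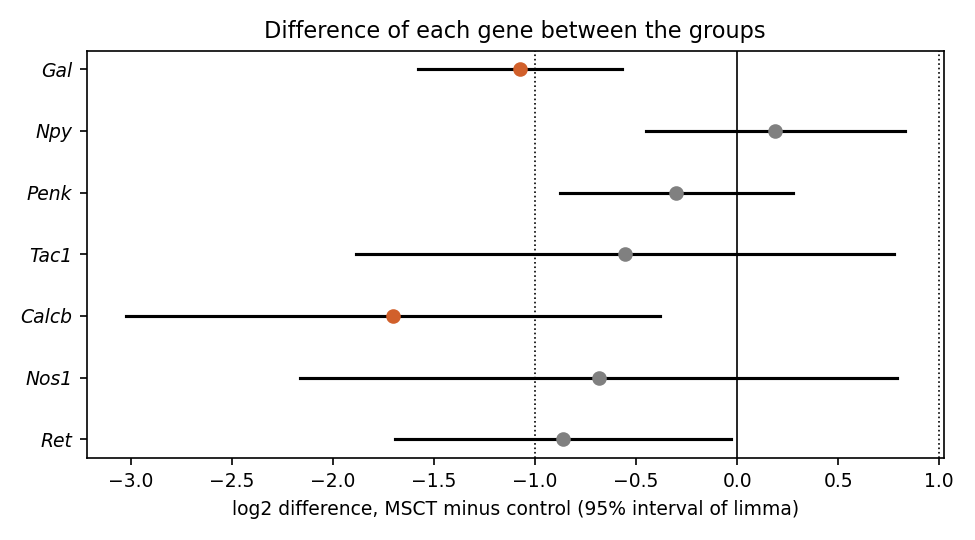
log2 difference of the MSCT group from the control group (horizontal axis) for the 7 genes, with the 95% interval of limma as a bar. Orange points mark Gal and Calcb, which passed the screen by limma, the dotted lines mark 2-fold, and the intervals of Gal, Calcb and Ret lie below 0.

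The interval of Tac1 ran from 3.70-fold lower to 1.71-fold higher and that of Nos1 from 4.48-fold lower to 1.73-fold higher, so a difference of the size of that of Gal was not detectable in these genes with 2 arrays a group. The interval of Npy does not reach a 2-fold difference in either direction, and neither does that of Penk. No difference between 2 of the genes was tested.

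**Figure D3:**
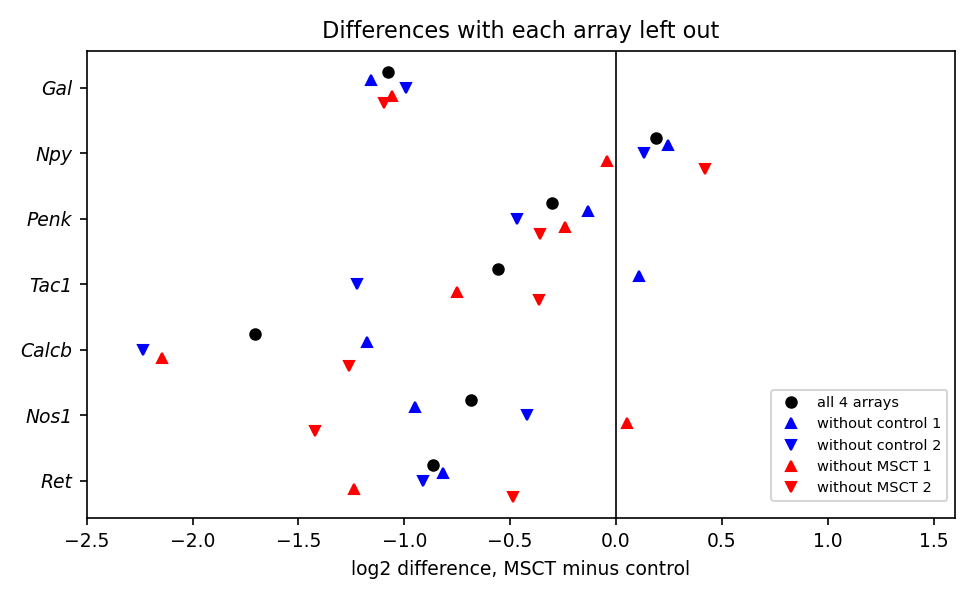
log2 difference of the MSCT group from the control group (horizontal axis) for the 7 genes, with all 4 arrays (black) and without each control array (blue) or MSCT array (red). The values of Gal stay between -1.16 and -0.99 and those of Calcb between -2.23 and -1.18, whereas Tac1, Nos1 and Npy each have 1 value on the other side of 0.

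Other neuropeptides of the gut went both ways. Of 20 listed genes, 11 were measured, and their median log2 difference was 0.10, with 6 higher and 5 lower. Nmu, which encodes neuromedin U, a peptide of enteric neurons, was lower by the screen. Its log2 intensity was 11.26 and 11.33 in control rats against 9.49 and 9.84 in MSCT rats, a difference of -1.62 (standard error 0.22). Grp, which encodes gastrin-releasing peptide of enteric neurons, was also lower by the screen, at 11.35 and 10.87 against 9.73 and 9.71, a difference of -1.38 (standard error 0.24). Tac3 and Tac4, the genes of the tachykinins neurokinin B and hemokinin, passed the screen in the other direction. Tac3 was at 7.74 and 8.11 in control rats against 9.04 and 9.39 in MSCT rats (difference 1.29, standard error 0.25). Tac4 was at 6.78 and 7.09 against 8.28 and 8.56 (difference 1.48, standard error 0.23). The adjusted p of these 4 genes by limma lay between 0.257 and 0.285.

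Receptors of the peptides were measured for 14 of 22 listed genes, with 7 higher and 7 lower and a median log2 difference of 0.00. Ramp1, the accessory protein that turns the receptor Calcrl into the CGRP receptor, was higher by the screen. Its log2 intensity was 10.56 and 10.29 in control rats against 12.17 and 11.96 in MSCT rats, a difference of 1.64 (standard error 0.21; adjusted p by limma 0.257). Ramp2, which gives Calcrl affinity for adrenomedullin, differed by 0.99 (standard error 0.27), just under the fold limit, and Calcrl by 0.26 (standard error 0.20). Tacr3, the neurokinin B receptor, was lower by the screen, at 8.47 and 8.39 in control rats against 7.09 and 7.39 in MSCT rats (difference -1.18, standard error 0.21; adjusted p by limma 0.260).

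The tachykinin receptors Tacr1 and Tacr2, which bind the peptides of Tac1, differed by 0.30 (standard error 0.21) and -0.46 (standard error 0.34). The galanin receptors gave dim rows: Galr1 differed by -1.09 with a standard error of 1.00, and Galr2 by -0.29 (standard error 0.30). The VIP receptor Vipr1, found on epithelium, differed by -0.58 (standard error 0.21; adjusted p by limma 0.404), with both MSCT arrays below both control arrays. The VIP receptor Vipr2, the PACAP receptor Adcyap1r1, the neuropeptide Y family receptors Npy2r and Npy4r, and Crcp, a component of CGRP receptor signaling, differed by 0.12, -0.34, 0.48, 0.30 and -0.11. None of these 5 had an unadjusted p under 0.05. All 3 opioid receptors of the list, Oprm1, Oprd1 and Oprk1, were blank on all 4 arrays, so the receptors for the peptides of Penk were not analysed here.

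Enzymes and transporters of the small transmitters were counted in 3 lists, 2 of which share the gene Gch1, beside the 4.63% of all rows that passed the screen. In the list of nitric oxide signaling, 8 of 12 genes were measured and 0 passed, with a median of 0.30. By limma 1 of these 8 was higher and 1 lower at an unadjusted p under 0.05, and the lower was Nos1ap, which encodes the adapter protein of neuronal nitric oxide synthase (-0.85, standard error 0.21). Of the catecholamine pathway 8 of 13 genes were measured and 1 passed, Slc18a1, the vesicular monoamine transporter of endocrine cells (difference 1.52, standard error 0.39). Dbh, which makes noradrenaline downstream of Th, differed by -0.87 (standard error 0.47), in the dimmest 25% of rows. Of the acetylcholine, serotonin and amino acid transmitters, 8 of 14 were measured and 0 passed. There, 0 genes were higher and 1 was lower at an unadjusted p under 0.05 by limma, Slc6a4, the serotonin transporter (-0.67, standard error 0.24). Nos1ap, Dbh and Slc6a4 were picked for naming after their values were seen. Of the peptide processing and breakdown list, 14 of 16 were measured and 0 passed the screen, with a median of 0.15 and 1 gene in each direction at an unadjusted p under 0.05 by limma.

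Around Ret, 19 of 22 genes of its pathway and of enteric neuron development were measured, with 11 higher, 8 lower and a median of 0.04. The ligand gene Gdnf and the coreceptor genes Gfra1 and Gfra2 differed by 0.53, -0.17 and -0.70 (standard errors 0.32, 0.36 and 0.42), none with an unadjusted p under 0.05. Gfra3, the artemin coreceptor, and Bmp4, a growth factor of the mesenchyme, passed the screen and were higher (1.29 and 1.06, standard errors 0.47 and 0.33). Of the list, 0 genes were lower by the screen.

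Most markers of neurons in general had a lower mean in the MSCT group. Of 24 pan-neuronal markers, 20 were measured, with a median log2 difference of -0.37. Of these 20, 16 were lower, against 52.0% of all rows, and 4 were higher, by up to 0.82. At an unadjusted p under 0.05 by limma 8 were lower and 0 higher (7.17% and 4.80% of all rows), and in 11 both MSCT arrays lay below both control arrays (24.5% of all rows). Elavl4, an RNA-binding protein of neurons, and Chrna3, a subunit of the ganglionic nicotinic receptor, passed the screen. Both were lower (2 of 20, against 2.51% of all rows). Elavl4 had a log2 intensity of 10.13 and 9.35 in control rats against 8.78 and 8.58 in MSCT rats (difference -1.06, standard error 0.33). Chrna3 was at 10.37 and 9.78 against 9.01 and 9.08 (difference -1.03, standard error 0.27). The mean log2 intensity of the 20 markers was 9.46 and 9.41 in control rats against 8.96 and 9.18 in MSCT rats.

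When each array was scaled to this mean, the median of all rows moved from -0.02 to 0.35, and the differences of the 7 genes moved up by 0.37. Relative to the pan-neuronal mean, Gal differed by -0.71, Calcb by -1.34, Ret by -0.50, Nos1 by -0.32, Tac1 by -0.19, Penk by 0.065 and Npy by 0.55. Calcb passed the screen on this scale and Gal did not reach 2-fold. Penk changed sign.

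Markers of other cell types of the wall were counted in the same way. The 8 measured markers of enteric glia had a median of -0.10, and 0 passed the screen or an unadjusted p under 0.05 by limma. The 5 measured smooth muscle markers differed by between -0.04 and 0.08. Their mean log2 intensity was 14.77 to 15.06 in control rats and 14.92 to 14.95 in MSCT rats. These rows lay near the top of the range: the brightest read 41526.5 on control replicate 1, where the highest value was 46020. Whether rows this bright can still show a difference was not tested. Of 10 measured epithelial markers, 1 passed the screen (4.63% of all rows did), Fabp2, a fatty acid carrier of absorptive cells, and the median was 0.09. Fabp2 was higher by 3.38 (standard error 0.86), with control arrays far apart at a log2 intensity of 6.56 and 9.02. At an unadjusted p under 0.05 by limma 1 of the 10 was higher and 1 lower. All 7 measured leukocyte markers had a higher mean in the MSCT group, with a median of 0.99, while 52.0% of all rows had a lower mean. Among them Cd4 and Cd8a differed by 0.37 and 0.006, with overlapping groups. By the screen 3 passed, against 2.12% of all rows higher: Laptm5, Cd68 and Csf1r (1.33, 1.29 and 1.00). The mean log2 intensity of these 7 was 9.00 to 9.09 in control rats and 9.73 to 10.04 in MSCT rats. Of the 3 measured endothelial markers 0 passed the screen, with a median of 0.05. Of the 5 measured mast cell markers 1 passed, against 2.12% of all rows higher: Mcpt1, a mast cell protease (higher by 4.41, standard error 0.23). Of these 5, 4 had a higher mean, with a median of 0.86, while 52.0% of all rows had a lower mean. Kit, the only measured marker of the interstitial cells of Cajal, which pace the muscle, differed by 0.18 (standard error 0.31). Kit is also in the list of mast cell markers, so its value does not stand for either cell type alone. The part of these other cells in the values of the neuropeptide genes was not tested.

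**Figure D4:**
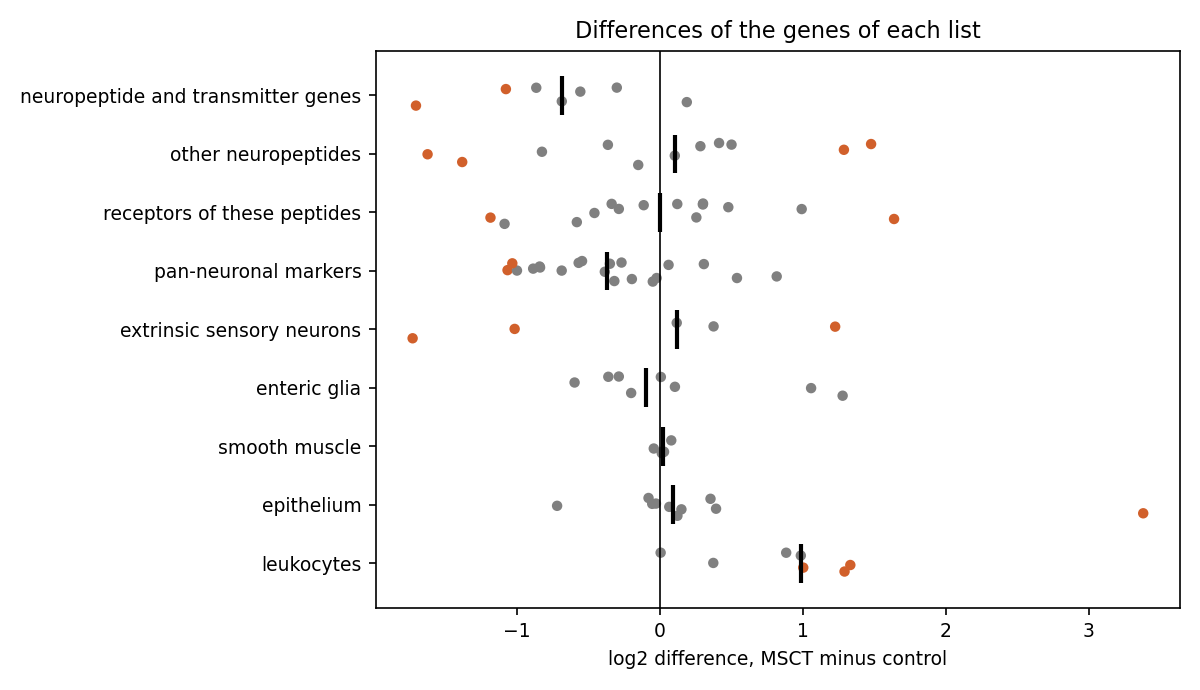
log2 difference of the MSCT group from the control group (horizontal axis) for each measured gene of 9 lists, 1 point per gene, orange where the gene passed the screen, with a bar at the median of the list. The medians of the neuropeptide and transmitter genes and of the pan-neuronal markers lie at -0.69 and -0.37. That of smooth muscle, whose rows lay near the top of the intensity range, lies at 0.02 and that of leukocytes at 0.99.

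Among markers of extrinsic sensory neurons, 5 of 7 were measured and 3 passed the screen (4.63% of all rows did). Of these 5, 3 had a higher mean in the MSCT group and 2 a lower mean, with a median of 0.12. Trpv1, the capsaicin receptor of CGRP-containing sensory fibers, was lower, with intensities of 525 and 402 in control rats against 150 and 128 in MSCT rats (log2 difference -1.73, standard error 0.23). Scn11a, a sodium channel of pain-sensing neurons, was lower too (difference -1.02, standard error 0.22). Isl1, a transcription factor of sensory neurons that endocrine cells of the gut also express, was higher (1.23, standard error 0.21). The rows of all 3 lay in the dimmest 25%. The cell bodies of most spinal sensory fibers lie outside the gut, so this RNA need not come from such fibers. Which cells of the colon pieces gave these values was not tested. Of the 8 measured enteroendocrine markers, 6 had a higher mean in the MSCT group and 2 a lower mean, while 52.0% of all rows had a lower mean. Their differences ran from -0.41 to 2.41, with a median of 0.52. Gcg, the proglucagon gene, was the 1 that passed the screen (2.41, standard error 0.19), against 2.12% of all rows higher.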

How the data were processed

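Colon RNA of 2 control and 2 MSCT rats was hybridized to one-color NimbleGen arrays. The authors deposited 1 linear intensity per RefSeq transcript and array, and the submitters' processing notes name RMA. Which of its steps were used, and why 8070 of 26420 rows are blank, is not given in the sources used here. If arrays were equalized, a shift shared by most genes would not show. Value columns left without a sample numbered 0.

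Intensities were converted to log2 with no pseudocount, scaling or filter, and compared with limma 3.58.1 (R 4.3.3, default settings of lmFit and eBayes) on all 18350 measured rows, with Benjamini-Hochberg adjustment. Rows were named through the RefSeq table of GRCr8 (7068 rows, 6968 genes), keeping the row with the highest mean per gene. Named are the 10 genes, list genes past the screen (at most 5 a direction) and every measured receptor of the peptides. Nos1ap, Dbh, Slc6a4, Kit, Gdnf, Gfra1, Gfra2, Cd4 and Cd8a were named outside this rule, after their values were seen. The genes and lists were chosen with earlier results of these data known. The fit was tested on simulated data. Alternatives were the plain t-test, other scalings, an offset of 50, filters on dim rows, other variance models and array weights. Others were a block for the replicate number, omission of each array, a fold limit of 1.5 and folds of linear means. Python 3.11.15 and pandas 2.3.3 were used for names and promoters.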

Additional observations from a re-analysis of the deposited data

How the results depend on the processing

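Gal, Calcb and Ret were lower in the MSCT group under every alternative that gave a value (17, 15 and 16 alternatives). Of the 7 genes, 2 passed the screen. With the plain t-test, and after scaling to the pan-neuronal markers, 1 passed. Without the dimmest 25% or 50% of rows 1 passed, and Calcb was not tested there. With single arrays left out, 1 to 3 of the 7 passed, the median difference lay between -0.91 and -0.49, and between 934 and 1565 of all rows passed. The lone array of a group was then assumed to vary like the other group. The 850 rows became 388 with the plain t-test and 1343 after scaling to the pan-neuronal markers. They became 251 without the dimmest 50% of rows and 2019 at a fold limit of 1.5. Tac1 changed sign without control replicate 1, Nos1 and Npy without MSCT replicate 1, and Penk after scaling to the pan-neuronal markers (0.065). With single arrays left out, Tac1 ranged from -1.22 to 0.11, Nos1 from -1.42 to 0.051 and Npy from -0.041 to 0.42. The cause was not tested. The median of the pan-neuronal markers was -0.0010 after scaling to their own mean, which this scaling sets near 0 by construction. With the replicate number as a block, 2 of the 7 genes and 971 rows passed, and the adjusted p by limma was 0.283 for both Gal and Calcb. The labels do not say that the numbers pair the rats, and the deviations of same-numbered arrays correlated at 0.23 across rows. Each measured gene had 1 row, so another row per gene gave no value. With the trend and robust options of eBayes together, 387 rows passed an adjusted p of 0.05 by limma, and of the 7 genes Gal did. The options were also run singly, a choice made after seeing the data: 424 rows passed with the trend option alone, Gal among them, and 0 with the robust option alone, where 834 rows passed the screen. Signal over background is not known, which among the 7 genes bears on Calcb and Nos1, both in the dimmest 25% of rows. It bears likewise on dim rows of the other lists, such as Tac4, Tacr3 and Gfra3.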
